A study of Ovis aries with 2 samples.

Results

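The genes described here are the receptors of the epidermal growth factor receptor (EGFR) family and the ligands that bind EGFR, in the skin of newborn Hu sheep lambs. The rule named 8 rows of the expression table by symbol, namely EGFR, ERBB2, ERBB3, AREG, HBEGF, BTC, EREG and TGFA, and all 8 of them were present among its 18161 genes. They were followed across all cells of both libraries. The rule used no measured value.

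Skin from the body side of Hu sheep lambs with straight wool and with curly wool was taken at day 3 after birth, and the skins of 3 lambs were pooled for each wool type. Every pool gave a 10× Genomics single-cell RNA-seq library, from a suspension of microdissected hair follicles mixed with a suspension of whole skin. The lambs were of the same breed and farm, they were chosen by wool length and curvature, and no treatment is given in the labels. The straight library held 6452 cells with 57956122 unique molecular identifiers (UMIs, each a counted RNA molecule) and a median of 7373.5 UMIs per cell. The curly library held 7585 cells with 77634565 UMIs and a median of 7495 UMIs per cell. 70 cell barcodes occurred in both libraries.

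Because there was 1 library for each wool type, a difference between straight and curly cells has no replicate check, and no test between wool types could be made. Lambs, wool type and library preparation cannot be told apart. Levels are CPM, the UMIs of a gene per 1000000 UMIs of the same cells, with exact Poisson 95% intervals, and ratios are log2 of curly over straight CPM with exact binomial 95% intervals. All intervals cover counting error only. Where a library has no UMI of a gene, 3 counts are allowed, which correspond to 0.0518 CPM for straight and 0.0386 CPM for curly cells. UMI levels depend on the gene and its transcript, so each gene is compared with itself across cells, and not with the other genes.

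EGFR and its relatives are receptor tyrosine kinases that work in pairs. AREG, HBEGF, BTC, EREG and TGFA are made as membrane-anchored precursors, released by metalloproteases such as ADAM17, and bind EGFR, which signals through RAS and the MAP kinases. ERBB2 has no known ligand of its own, and ERBB3 has a weak kinase and binds neuregulins. In mouse skin this family acts in epidermal growth and in the shape of the follicle, and loss of Tgfa or reduced function of Egfr gives the wavy coats of the waved mutants.

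The cells fell into 23 clusters, numbered 0 to 22 from the largest, and clustering did not use the members. Names ending in "-like" rest on marker lists. DPC stands for dermal papilla cells, HFSC for hair follicle stem cells, IRS for the inner root sheath and IFE for the interfollicular epidermis. Cluster 3 had a median of 755 UMIs per cell and is led by HBB and hair shaft genes, so its CPM values rest on few molecules per cell. Clusters 19 to 22 held fewer than 100 cells each. Cells of clusters 1, 3, 10, 16, 18 and 20 remained unnamed, and they are called here by a leading gene or by number.

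Over all cells of each library, 0 of the 8 members passed a 1.5-fold difference in either direction, where 23.1% of the 13196 genes with at least 100 UMIs did. The median log2 ratio of those genes was -0.18, so a gene at 0 stood slightly above the centre of all genes. HBEGF came nearest to the fold, with 85.8 CPM in straight cells and 60.3 CPM in curly ones, a log2 ratio of -0.51 (-0.57 to -0.45), and with every cluster weighted by its share of all cells the ratio was also -0.51. AREG measured 175 and 148 CPM, with a log2 ratio of -0.24. BTC, EREG and ERBB3 stood on the other side of 0, at 0.27, 0.26 and 0.22. As a mean of per-cell CPM, in which every cell counts alike, BTC was at 0.00 and EREG at 0.70, past 1.5-fold. Scaled by the median of gene ratios, EGFR and ERBB2 stood at 0.20 and 0.17, and with each cell thinned to 2000 UMIs AREG stood at 0.03. EGFR was 31.3 CPM in straight cells and 31.7 CPM in curly ones, a log2 ratio of 0.02 (-0.07 to 0.11), and ERBB2 was 27.0 and 26.7 CPM, a log2 ratio of -0.02 (-0.11 to 0.08). TGFA, the least sampled member with 324 and 409 UMIs, had a log2 ratio of -0.09 (-0.30 to 0.13), whose interval spans 0.

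**Figure D1:**
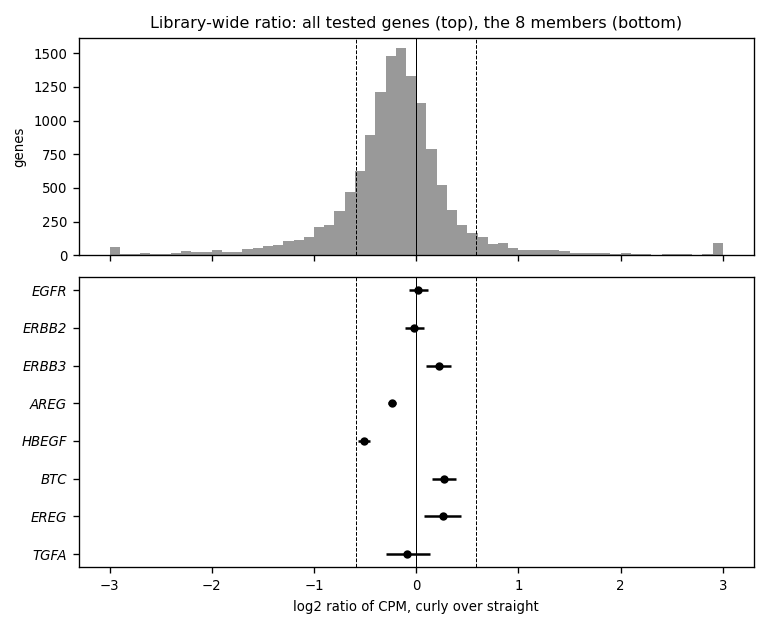
Library-wide ratios. The top panel counts all genes with at least 100 UMIs by their log2 ratio of CPM, curly over straight, with values beyond 3 drawn at the edge; the bottom panel gives the 8 members with their 95% counting intervals. Dashed lines mark 1.5-fold, which none of the 8 members passed.

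EGFR, the receptor that all the ligands here bind, was measured in every epithelial cluster and was near its lowest in vascular and dermal cells. Its highest level was in cluster 8, an HFSC-like cluster led by LGR5, a stem cell gene of the follicle. There EGFR measured 84.2 CPM (66.5 to 105) in straight and 82.8 CPM (72.7 to 93.9) in curly cells, and the libraries overlapped. A UMI of EGFR was found in 28.9% of the straight and 33.4% of the curly cells of cluster 8. In endothelial-like cells, which can serve as the background, the shares were 1.57% and 0.599%, at median depths of 5314 and 3820 UMIs against 2969 and 5556.5 in cluster 8.

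Most of the next clusters in order could not be separated from their neighbours. The shallow cluster 3 came second, with 47.1 and 66.8 CPM. EGFR was 54.1 and 53.3 CPM in the luminal gland-like cells of cluster 17, 52.3 and 49.5 CPM in cluster 1, an unnamed cluster led by FGFBP1, and 52.1 and 43.1 CPM in the HFSC-like cluster 6 led by PTHLH. Of the 16 clusters with at least 20 UMIs of EGFR, 2 were past 1.5-fold lower in curly cells, both unnamed and among these. Of all tested genes, 35.9% passed 1.5-fold in either direction in cluster 18 and 42% in cluster 16. EGFR was 71.0 and 31.0 CPM in the LCN2-led cluster 18, a log2 ratio of -1.20 (-2.03 to -0.31), with 26 straight cells. In the KLK6-led cluster 16 it was 66.6 and 32.2 CPM, a log2 ratio of -1.05 (-1.69 to -0.37), with 40 straight cells. DPC-like cells, the dermal signalling centre of the follicle, held 4.94 and 5.87 CPM, and endothelial-like cells 3.07 and 1.16 CPM.

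The lead of cluster 8 in CPM was not clear among the cells with the most detected genes. Among the 3964 straight and 4321 curly cells with the most detected genes, EGFR in cluster 8 was 44.8 CPM (29.8 to 64.7) in straight and 62.6 CPM (51.2 to 75.7) in curly cells, beside 50.3 and 51.8 CPM in cluster 1. At that depth the first few epithelial clusters had overlapping intervals. With finer clustering, at resolution 0.8, a group of 71 cells with PPARG and PLIN2, genes of lipid-storing sebaceous cells, among its leading genes held 127 CPM (100 to 159) in its 52 straight cells and 133 CPM (94.7 to 181) in its 19 curly cells. That group was picked out after its values had been seen.

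LRIG1, which lowers the level of ERBB receptors at the cell surface and marks follicle stem cells, also had its highest level in cluster 8. It measured 127 CPM in straight cells and 134 CPM in curly ones there, against 20.8 and 15.1 CPM in cluster 1.

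ERBB2, the partner receptor, was highest in cluster 16, an unnamed epithelial cluster led by KLK6 and CDSN. Its level there was 106 CPM (77.3 to 141) in straight and 62.5 CPM (52.5 to 73.8) in curly cells, a log2 ratio of -0.76 (-1.25 to -0.24). Cluster 16 had 40 straight cells, and 5 of them held 45.7% of their ERBB2 UMIs. As a mean of per-cell CPM the level of both libraries together was 150 CPM for ERBB2, beside 84.0 CPM of summed UMIs. The shallow cluster 3 stood next with 47.1 and 57.5 CPM, and then the HFSC-like cluster 8 with 51.8 and 35.2 CPM, the suprabasal IFE-like cluster 5 with 43.2 and 41.4 CPM and the sebaceous or infundibulum-like cluster 4 with 45.6 and 37.7 CPM, whose ranges overlapped. In endothelial-like cells it was 7.66 and 1.16 CPM.

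ERBB3, the neuregulin receptor, was 59.7 CPM (39.0 to 87.4) in straight and 57.1 CPM (47.5 to 67.9) in curly cells of cluster 16. As a mean of per-cell CPM both libraries together held 102 CPM, beside 58.4 CPM of summed UMIs. The shallow cluster 3 held 51.5 and 57.5 CPM. ERBB3 followed at 37.7 and 39.5 CPM in the luminal gland-like cells, 36.2 and 37.5 CPM in cluster 4 and 27.5 and 30.5 CPM in cluster 5. ERBB3 was 10.4 and 13.9 CPM in cluster 1, below clusters 4 and 5 in both libraries, whereas EGFR was higher in cluster 1 than in clusters 4 and 5 in both. In the 83 cells of cluster 20 ERBB3 reached 95.9 CPM in straight cells and 26.2 CPM in curly ones, on 14 and 23 UMIs. That cluster had a median of 1748 UMIs, and 68.9% of its tested genes passed 1.5-fold.

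In cluster 15, a contractile-like cluster led by DES and RGS5, ERBB3 came mostly from a few cells that carried markers of Schwann cells, the glia of peripheral nerve, in which ERBB3 and neuregulin are known to act. Of its 251 cells, 11 had UMIs of at least 2 of the 5 Schwann markers, 1 of them straight and 10 curly. They held 12 of the 18 ERBB3 UMIs, or 491 CPM (254 to 857), against 5.62 CPM (2.06 to 12.2) in the other 240 cells. These cells were picked out after the values of the cluster had been seen.

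**Figure D2:**
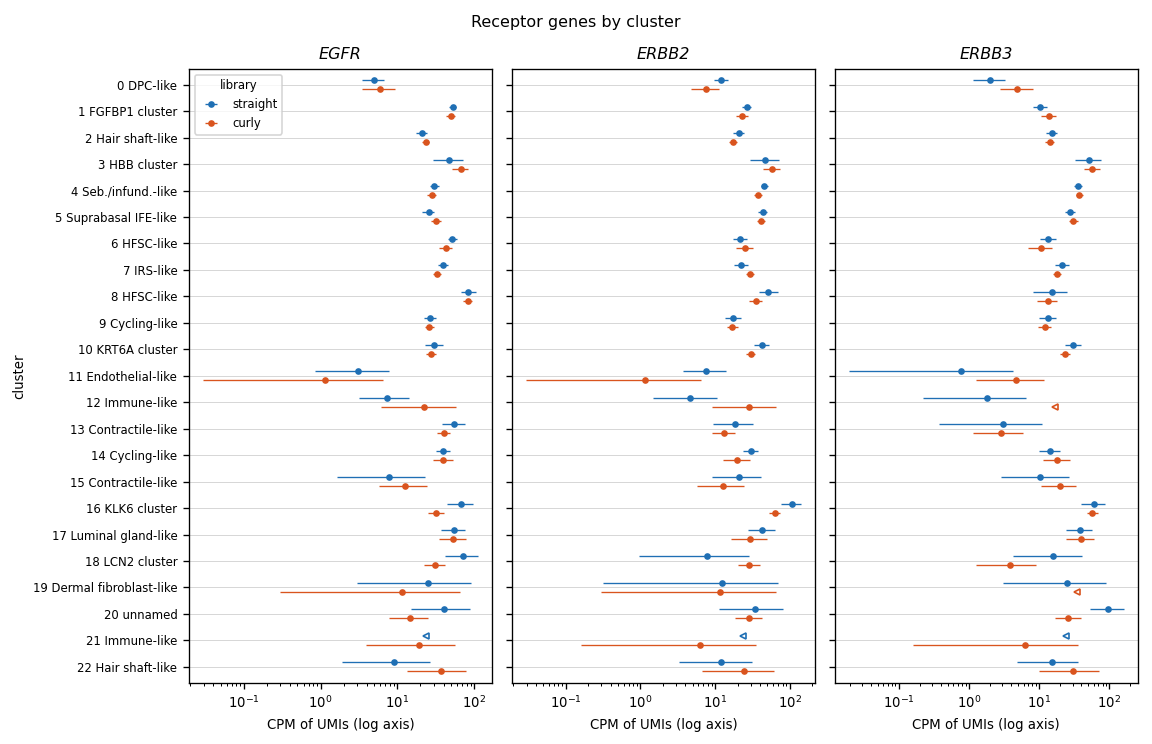
Receptor genes by cluster. Each point is the CPM of EGFR, ERBB2 or ERBB3 in the straight (blue) or curly (orange) cells of a cluster on a log axis, with its exact Poisson 95% interval, and open triangles mark the 3-count limit where no UMI was found. EGFR peaks in cluster 8, and ERBB2 and ERBB3 are high in cluster 16, while DPC-like and endothelial-like cells lie low for all 3 receptors.

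AREG, or amphiregulin, differed between wool types in opposite directions in different cell classes. Luminal gland-like cells held its highest mean level of both libraries, 682 CPM (618 to 751) in the 106 straight cells and 2612 CPM (2473 to 2757) in the 85 curly cells. The log2 ratio was 1.94 (1.78 to 2.10). A UMI of AREG was found in 54.7% of straight and 67.1% of curly cells, and the median cell with any AREG held 2.5 and 11 UMIs. Endothelial-like cells had a UMI in 5.76% and 4.19%. The 5 cells with the most AREG held 46.2% of the straight and 45.6% of the curly UMIs of this cluster, and without them the levels were 398 and 1647 CPM. Cluster 4 without its 5 such cells held 579 and 624 CPM, so the lead of the gland cells rested on the curly library. In this cluster 34.7% of the 4896 genes with at least 20 UMIs passed 1.5-fold, as did 4 of the 7 members that could be compared.

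The bulk of AREG came from the sebaceous or infundibulum-like cluster 4, led by KRT79, CST6 and ASPRV1. It held 43.7% of all AREG UMIs of the straight library and 46.8% of the curly library, from 11.7% and 10.3% of all UMIs. AREG in cluster 4 as a whole did not separate the wool types, with 650 CPM (631 to 669) in straight and 671 CPM (653 to 689) in curly cells. Its log2 ratio was 0.05 (-0.01 to 0.10). None of the 8 members passed 1.5-fold in cluster 4, where 32.3% of genes did.

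In several other clusters AREG was lower in curly cells. IRS-like cells, which mould the growing fibre, had 401 CPM (382 to 422) in straight and 128 CPM (122 to 136) in curly cells, a log2 ratio of -1.64 (-1.75 to -1.54). Cycling-like cells of cluster 9 had 140 and 41.5 CPM, and those of cluster 14 had 84.1 and 15.7 CPM. The PTHLH-led HFSC-like cluster 6 had 149 and 58.5 CPM and cluster 1 had 103 and 50.6 CPM. Over the 19 clusters with at least 20 UMIs of AREG, 9 were past 1.5-fold lower and 3 past 1.5-fold higher in curly cells. In each of those 19, between 18.9% and 45% of the tested genes passed in either direction. Beside the gland, the higher ones were endothelial-like cells, at 1.65 (0.61 to 2.78) on 12 and 25 UMIs, and the hair shaft-like cluster 22. The latter was at 1.12 (-0.13 to 2.38) on 12 and 13 UMIs.

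HBEGF, a heparin-binding ligand, also had its highest mean level of both libraries in the gland. Luminal gland-like cells measured 202 CPM (168 to 241) in straight and 440 CPM (384 to 502) in curly cells, a log2 ratio of 1.13 (0.80 to 1.46), or 1.03 without the 5 cells of each library that held the most HBEGF. The mean level of both libraries was 321 CPM with and 183 CPM without those cells. Cluster 4 followed with 151 and 142 CPM and IRS-like cells with 158 and 106 CPM, while the 38 immune-like cells of cluster 21 held 192 and 76.6 CPM, and these ranges overlapped. HBEGF was also present in endothelial-like cells, at 86.6 and 52.0 CPM, near its levels over all cells.

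Outside the gland, HBEGF was mostly lower in curly cells. The suprabasal IFE-like cluster 5 held 115 CPM (105 to 124) in straight and 30.4 CPM (26.1 to 35.2) in curly cells, a log2 ratio of -1.92 (-2.17 to -1.67). A UMI of HBEGF was found in 43.0% of straight and 19.5% of curly cells of this cluster. Hair shaft-like cells of cluster 2 held 55.5 and 20.3 CPM, and the cycling-like cluster 14 held 87.8 and 29.8 CPM. Of all 20 clusters with at least 20 UMIs of HBEGF, the gland included, 10 were past 1.5-fold lower and 2 past 1.5-fold higher. The higher ones were the gland and the immune-like cluster 12, at 0.72 (-0.62 to 1.88) on 30 and 8 UMIs. In each of those 20 clusters, between 18.9% and 42.8% of the tested genes passed in either direction. Among all genes of cluster 5, 29.8% passed 1.5-fold, and 3 of the 8 members did.

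HBEGF and AREG are known as early response genes, so the early response genes of the pathway list are set beside them. FOS was 1756 and 1401 CPM over all cells, JUNB 1732 and 1404 CPM and IER3 1321 and 1142 CPM, with log2 ratios of -0.33, -0.30 and -0.21. EGR1, MYC and PHLDA1 had log2 ratios of -0.34, -0.50 and -0.77. In luminal gland-like cells FOS was 3304 and 5292 CPM, in IRS-like cells 312 and 455 CPM and in cluster 5 1813 and 1079 CPM. FOS thus stood on the same side as HBEGF in the gland and in cluster 5 and on the other side in IRS-like cells. AREG shared the side of FOS in the gland, but not in IRS-like cells or in cluster 5. In cluster 5 AREG was 117 and 165 CPM, a log2 ratio of 0.50 (0.35 to 0.65), where FOS was lower in the curly library. The part of FOS in the ligand differences was not tested.

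BTC, or betacellulin, was highest in clusters 4 and 5. Cluster 4 held 66.3 CPM (60.4 to 72.8) in straight and 90.0 CPM (83.6 to 96.8) in curly cells, and 49.9% and 49.5% of all BTC UMIs. In the suprabasal IFE-like cluster 5, BTC was 29.3 CPM (24.7 to 34.5) in straight and 70.1 CPM (63.5 to 77.2) in curly cells. That log2 ratio of 1.26 (0.98 to 1.54) runs against the one of HBEGF in the same cells, and was 0.63 as a mean of per-cell CPM. Contractile-like cells of cluster 15 were the third by level, with 28.8 CPM (14.4 to 51.5) and 39.4 CPM (26.2 to 57.0). All 39 BTC UMIs there were in the 240 cells without 2 Schwann markers. IRS-like cells and the hair shaft-like cells of cluster 2 held little BTC, with 1.30 and 1.35 CPM in the former and 0.565 and 0.965 CPM in the latter.

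EREG, or epiregulin, had 421 UMIs in all straight and 675 in all curly cells. The suprabasal IFE-like cluster 5 held 22.0 CPM (18.1 to 26.6) in straight and 37.0 CPM (32.2 to 42.2) in curly cells, and IRS-like cells held 30.3 and 18.4 CPM. The log2 ratios of 0.75 (0.41 to 1.09) and -0.72 (-1.06 to -0.38) point in opposite directions. EREG in cluster 5 rested on few cells, with a mean of both libraries of 29.5 CPM, or 14.0 CPM without the 5 cells of each library that held the most EREG. The level of the small immune-like cluster 21, 47.9 and 109 CPM, rested on 4 cells, and 94.1% of its curly UMIs were in 1 cell. No UMI of EREG was found in endothelial-like cells of either library, which allows up to 2.30 CPM in straight cells and 3.47 CPM in curly ones for 3 counts. In the IRS-like cluster 7 as a whole, 2 of the 7 members that could be compared passed 1.5-fold, against 27.9% of genes.

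TGFA, the ligand whose loss gives a wavy coat in mice, had a UMI in 4.06% of straight and 4.22% of curly cells. The contractile-like cluster 13, led by ACTG2, held 19.9 CPM (10.6 to 33.9) in straight and 23.0 CPM (17.4 to 29.8) in curly cells. Cluster 16 held 16.1 and 22.7 CPM and cluster 4 held 12.5 and 12.5 CPM. The level in luminal gland-like cells was 9.83 CPM (3.61 to 21.4) in straight and 33.5 CPM (19.5 to 53.7) in curly cells, on 6 and 17 UMIs. Its mean over both libraries there was 21.7 CPM, and 5.81 CPM without the 5 cells of each library that held the most TGFA. In the unnamed cluster 10, led by KRT6A, a companion layer keratin, TGFA was 16.2 CPM (10.9 to 23.2) in straight and 5.53 CPM (3.87 to 7.65) in curly cells, a log2 ratio of -1.55 (-2.29 to -0.80). Median depth in cluster 10 was 7103.5 UMIs in straight and 17910 in curly cells, and its part in the result was not tested.

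**Figure D3:**
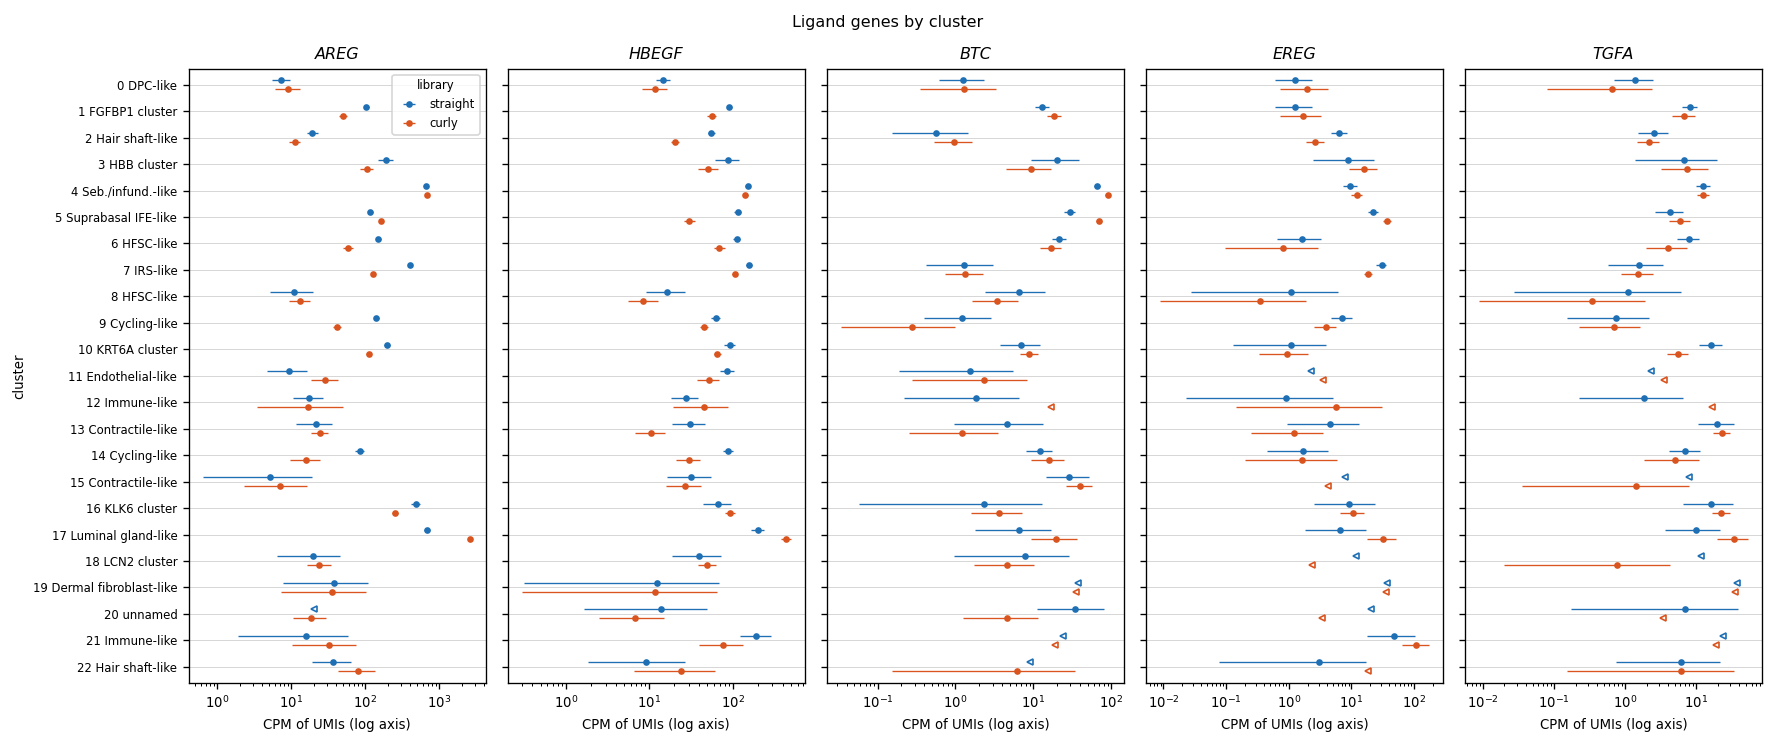
Ligand genes by cluster. Points give the CPM of the 5 ligands in straight (blue) and curly (orange) cells of each cluster on a log axis, with exact Poisson 95% intervals, and open triangles mark the 3-count limit where no UMI was found. AREG and HBEGF have their highest mean levels of both libraries in luminal gland-like cells, and BTC is highest in clusters 4 and 5.

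Finer clustering gave smaller groups with higher levels of BTC, EREG and AREG. At resolution 0.8, a suprabasal IFE-like group of 237 cells led by SPINK7 and FLG, the gene of filaggrin in the granular layer, held 99.4 CPM of BTC in straight cells and 163 CPM in curly ones. EREG in this group was 96.7 and 120 CPM, and AREG was 368 and 524 CPM. The group held 106 and 205 of the EREG UMIs, and its log2 ratio of 0.31 (-0.04 to 0.66) spans 0, so the higher EREG of curly cells in cluster 5 was not a call there. BTC in the group had a log2 ratio of 0.71 (0.39 to 1.05). A group of 243 sebaceous or infundibulum-like cells led by CST6 held 1331 and 929 CPM of AREG, a log2 ratio of -0.52 (-0.60 to -0.44), within 1.5-fold. BTC in that group was 131 and 121 CPM, with more BTC UMIs (195 and 374) than the FLG-led group (109 and 279).

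**Figure D4:**
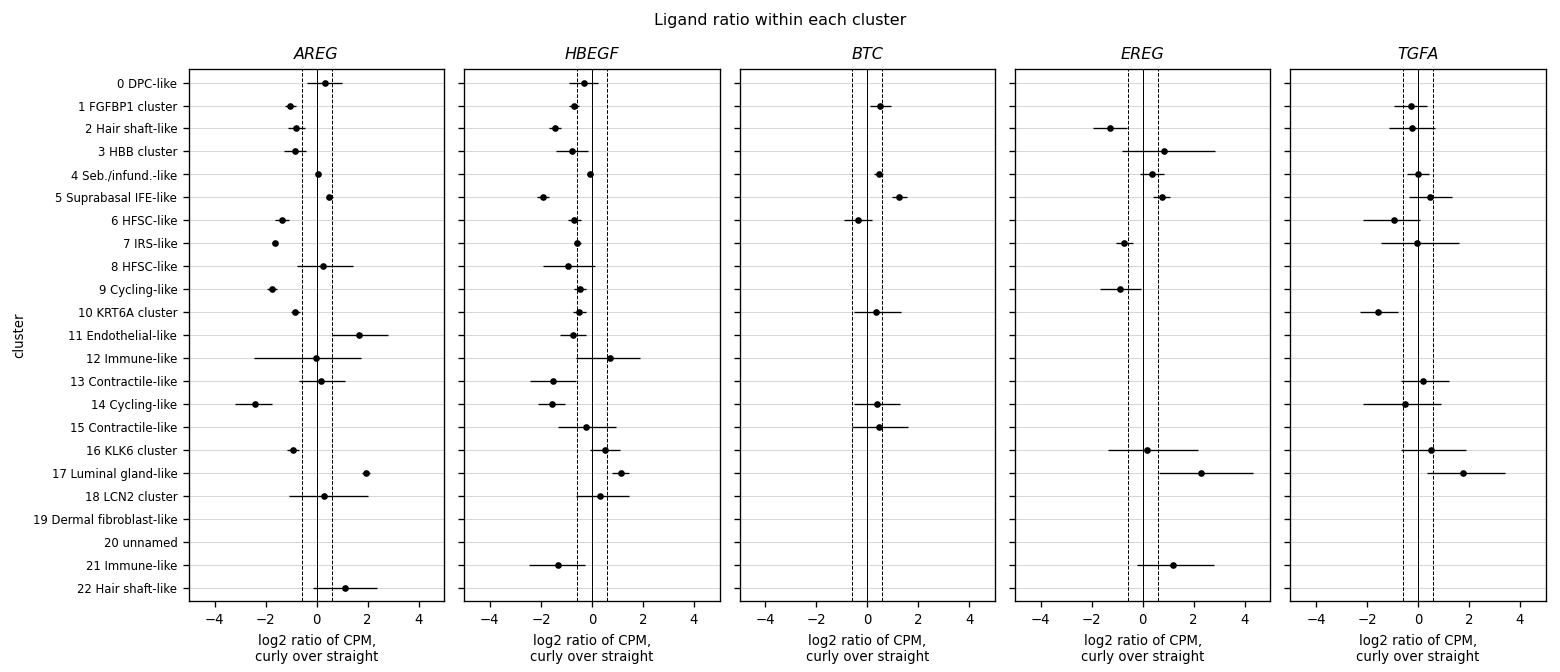
Ligand ratios within clusters. Points give the log2 ratio of CPM, curly over straight, with 95% counting intervals for clusters with at least 20 UMIs of the ligand and UMIs in both libraries, and dashed lines mark 1.5-fold. In luminal gland-like cells AREG lies at 1.94 and HBEGF at 1.13, while both lie below 0 in most other epithelial clusters and BTC lies at 1.26 in cluster 5.

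Among the members, EGFR and ERBB2 had the most alike patterns over the 23 clusters by the smaller Pearson's r of both libraries. On the log2 scale r was 0.78 in straight and 0.80 in curly cells. ERBB2 and ERBB3 had 0.81 in straight and 0.51 in curly cells. AREG and HBEGF followed each other at 0.67 and 0.78, and EREG and HBEGF at 0.60 and 0.59. BTC and EREG had values of -0.13 and 0.08. Likeness to other genes was taken as the smaller of both correlations among 7185 genes. CDH1, the epithelial cadherin, was among the 5 most alike genes of EGFR (0.76), ERBB2 (0.73) and TGFA (0.72). The most alike gene was PRKCI for EGFR (0.79), CAMSAP3 for ERBB2 (0.80) and NOXA1 for ERBB3 (0.88). By Spearman's rho NOXA1 was also among the 5 most alike, whereas PRKCI and CAMSAP3 were not. For the ligands other than AREG it was ABI1 for HBEGF (0.70), FAM160A1 for BTC (0.67), PPIF for EREG (0.68) and S100A2 for TGFA (0.83). The clusters share their libraries and depth, so these values are descriptions. The pattern of a member in straight cells correlated with its own pattern in curly cells at 0.62 for ERBB3 and 0.89 for EREG, the lowest and highest of the 8. Several clusters had no UMI of EREG in either library, and these enter its value. The values therefore do not rank the members by how well their patterns repeat.

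Of 51 other genes of the pathway, 48 were in the table and 46 had at least 100 UMIs. 2 of the 46 were past 1.5-fold higher in curly cells and 9 past 1.5-fold lower, beside 6.22% of all genes higher and 16.9% lower, shares near those of the list, and their median log2 ratio was -0.29 beside -0.18. ERBB4, EGF and NRG4 were not used here. Among the other ligands NRG2, a neuregulin that binds ERBB3, was 13.4 CPM in straight cells and 4.60 CPM in curly ones, a log2 ratio of -1.55 (-1.73 to -1.36). NRG2 was highest in DPC-like cells, at 75.1 and 28.1 CPM, which were 19.2% of straight and 8.61% of curly cells. NRG1 was highest in the contractile-like cluster 13, at 48.9 and 18.6 CPM. EPGN, a further EGFR ligand, had 12 and 42 UMIs in all, of which 10 and 27 were in IRS-like cells.

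The 4 genes of ligand release stayed within 1.5-fold. ADAM17, a protease that releases several of these ligands, was 16.0 and 11.4 CPM, a log2 ratio of -0.49. Among 21 genes of the adaptors and kinases, HRAS was past the fold upwards (0.70), and SHC1 (-0.62) and STAT3 (-0.87) downwards. Among 11 feedback inhibitors, none was past the fold upwards and 4 were past it downwards, where 16.9% of all genes were. These were the Sprouty genes SPRY1 (-0.64), SPRY2 (-0.93) and SPRY4 (-1.13) and the related SPRED2 (-1.13), which dampen RAS signalling. SPRY4 and SPRED2 were highest in the immune-like cluster 12, at 53.8 and 28.1 CPM for SPRY4 and 46.5 and 39.3 CPM for SPRED2, and this cluster was 4.40% of straight and 0.976% of curly cells. SPRED2 in DPC-like cells was 44.6 and 38.8 CPM. The part of cell shares in these ratios was not tested. ERRFI1, an inhibitor of the EGFR kinase, was -0.17 over all cells. It was 149 and 24.5 CPM in DPC-like and 131 and 468 CPM in ACTG2-led contractile-like cells. Of all tested genes, 31.2% passed 1.5-fold in either direction in the former and 37.2% in the latter. The levels of ERRFI1 in other clusters are not given here. Of the 8 induced genes, the transcription factor ETV4 was higher (0.64) and PHLDA1 lower (-0.77).

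**Figure D5:**
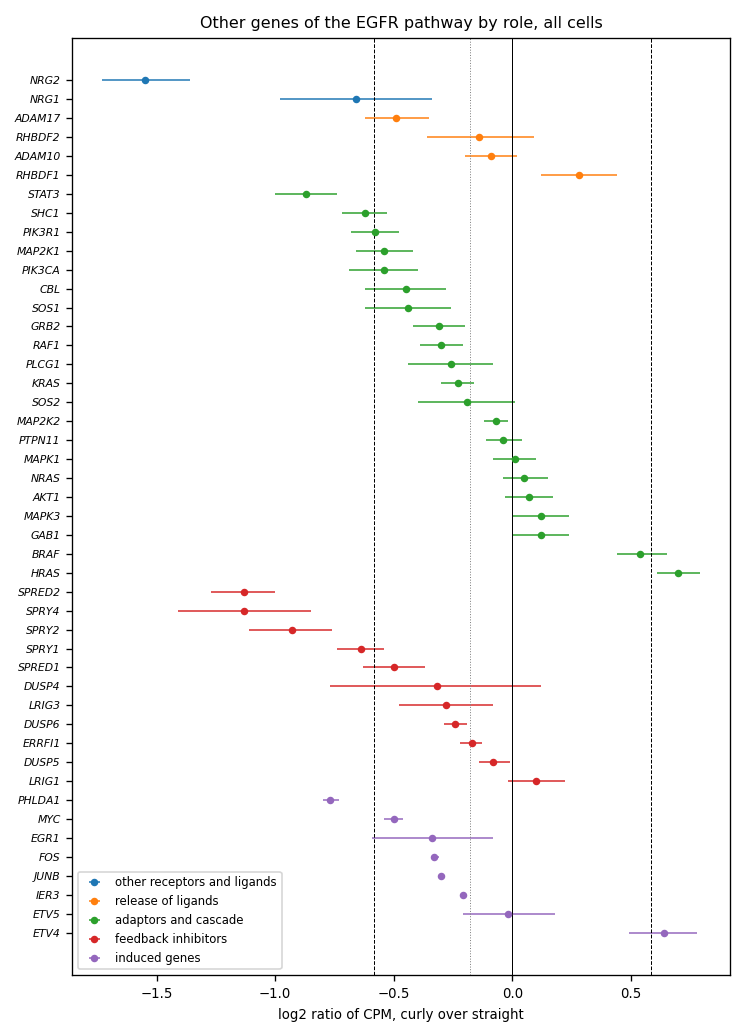
Other genes of the pathway. Points give the log2 ratio of CPM, curly over straight, over all cells with 95% counting intervals, coloured by role; dashed lines mark 1.5-fold and the dotted line the median of all genes, -0.18. No feedback inhibitor lies past 1.5-fold upwards, and 4 of 11 lie past it downwards.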

How the data were processed

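Single-cell RNA-seq of skin was measured in 1 straight wool and 1 curly wool library of 3 pooled lambs each. The authors aligned reads with Cell Ranger to Oar_rambouillet_v1.0 and counted UMIs (the submitters' processing notes give version 3.0.2, the paper another), filtered cells and deposited 1 table of natural log values, ln of 1 plus UMIs scaled to 10000 per cell. The table holds 14037 barcodes, where the series text states 15830 cells. The tests had been planned for counts, so UMIs were recovered from these logs, and 100% of 28552149 values above 0 came out whole within 0.01.

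Libraries were integrated with Seurat 5.3.0 in R 4.3.3 by anchors on 2000 variable genes, without the 4 members among them, on 30 dimensions. Resolution 0.3 was the lowest in steps of 0.1 with at least 19 clusters, and 0.8 was an alternative. Cluster assignments vary with the numerical library, which was fixed. A cluster was named by its highest marker score, at least 1.5, with at least 3 markers detected in 10% of cells. Named classes held no more markers of another class among their 10 leading genes than of their own. Doublets were kept, and left out in an alternative (842 cells of highest simulated-doublet score, 6% per library).

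UMIs were summed per cluster and library, with minimums of 100 UMIs over all cells and 20 within a cluster. Depth was 57956122 and 77634565 UMIs. Named genes are the 8 members, a pathway list of 51 genes and the 5 genes most alike to each member (at least 500 UMIs in each library, log2 of 1 plus CPM). The members and lists were chosen with earlier results of these data known. Calculations were tested on simulated data. The calculations ran in Python 3.11.15 with scipy 1.17.1, scikit-learn 1.9.0, numpy 2.4.6 and pandas 2.3.3, and plots were drawn with matplotlib 3.10.9. Positions and sequences were not used here. Some values of single genes are not reported here.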

Additional observations from a re-analysis of the deposited data

Results flagged for a closer look

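For 5 members the ratio of curly over straight passed 1.5-fold upwards in a cluster and downwards in another, with both counting intervals on their side of 0. The clusters given are those with the highest and lowest such ratio of each member. In a cluster, between 18.9% and 68.9% of the tested genes passed 1.5-fold in either direction. How many of all genes meet the same rule was not counted, so these members are not set apart from other genes. The difference between the clusters was not tested, since there was 1 library for each wool type. AREG had a log2 ratio of 1.94 in luminal gland-like cells and -2.42 in the cycling-like cluster 14. HBEGF had 1.13 in luminal gland-like cells and -1.92 in the suprabasal IFE-like cluster 5. TGFA had 1.77 in luminal gland-like cells, on 6 and 17 UMIs, and -1.55 in cluster 10. EREG had 2.27 in luminal gland-like cells, where its 16 curly UMIs came from 3.53% of the cells, and -1.28 in the hair shaft-like cluster 2. ERBB3 had 1.27 in DPC-like cells, on 16 and 15 UMIs, and -1.87 in cluster 20, where the median log2 ratio of all tested genes was -0.82.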

How the results depend on the processing

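No paired analysis was possible because each wool type had 1 library. With 1 library per group, no replicate could be left out, and the cause of the shifts below was not tested. A level, ratio or share counts as moved where it left its own counting interval, and a count of genes where it changed more than 1.5-fold. By these rules 47 of 119 values moved, and leaving out doublets moved none. Thinning takes away UMIs, so lower shares of cells with a UMI were built into that alternative. Alternatives that leave out 5 cells, and those on ratios within a cluster, were chosen after seeing the data.

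For the library-wide log2 ratios, the mean of per-cell CPM gave -0.09 for AREG, 0.00 for BTC, 0.70 for EREG, -0.41 for HBEGF and 0.19 for TGFA. Weighting clusters by their share of all cells gave -0.14 for AREG, -0.14 for ERBB2 and 0.03 for ERBB3. Scaling by the median of gene ratios gave -0.06 for AREG, 0.45 for BTC, 0.20 for EGFR, 0.17 for ERBB2, 0.40 for ERBB3, 0.44 for EREG and -0.33 for HBEGF. Thinning to 2000 UMIs gave 0.03 for AREG, 0.42 for ERBB3, 0.58 for EREG and 0.51 for TGFA. HBEGF stayed below 0 and within 1.5-fold in all 6 alternatives.

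For the mean level of both libraries in the leading cluster of at least 25 cells in each library, keeping only the 3964 straight and 4321 curly cells with the most genes gave 53.7 CPM for EGFR and 373 CPM for HBEGF. The mean of per-cell CPM gave 1540 for AREG, 119 for EGFR, 150 for ERBB2, 102 for ERBB3 and 269 for HBEGF. Resolution 0.8 gave 131 CPM for BTC and 108 CPM for EREG, both in the FLG-led group. Without the 5 cells with the most UMIs of the gene in each library, the levels were 1022 CPM for AREG, 71.4 for BTC, 62.7 for ERBB2, 42.9 for ERBB3, 14.0 for EREG, 183 for HBEGF and 5.81 for TGFA.

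Within clusters, the mean of per-cell CPM gave a log2 ratio of 1.77 for AREG in luminal gland-like cells and 0.63 for BTC in cluster 5, and leaving out the 5 cells gave -1.47 for AREG in IRS-like cells. Recomputed ratios within a cluster were those of AREG in luminal gland-like and IRS-like cells and of HBEGF in luminal gland-like cells and cluster 5. BTC in cluster 5 was the only other one. None of these changed its sign, but all were past 1.5-fold to begin with. The other ratios within clusters were not recomputed in this way. After thinning, the share of all cells with a UMI was 11.5% for AREG, 2.74% for BTC, 6.24% for EGFR, 5.36% for ERBB2, 3.64% for ERBB3, 1.07% for EREG, 9.44% for HBEGF and 0.951% for TGFA. Of the 40 most alike genes, 16 were also among the 5 highest by Spearman's rho. The count of pathway genes past 1.5-fold was 11, and 12 and 9 with minimums of 20 and 500 UMIs. Depth limits TGFA and EREG most, and clusters under 100 cells.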

Other observations

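Markers of Schwann cells and melanocytes were looked up over all cells, because ERBB3 is known in both lineages. SOX10, a neural crest transcription factor, had 20 UMIs in the straight and 85 in the curly library, CDH19 10 and 17 and S100B 956 and 917. Of the melanocyte genes, MITF had 577 and 471 UMIs, PMEL 77 and 77, DCT 3 and 5 and MLANA 0 and 1. ERBB3 in melanocytes was not described here.

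SPRED2 in the FGFBP1-led cluster 1 was 29.3 and 15.7 CPM, a log2 ratio of -0.90 (-1.29 to -0.51).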
